A study of Mus musculus with 20 samples.

Results

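The carcass libraries are the 4 of the 20 in this series that compare *Tdg* null with wild-type (WT) tissue from what was left of E11.5 mouse embryos once hindbrain, heart and liver had been dissected. They were chosen by tissue label alone, and the members described are the 21281 autosomal protein-coding genes and the 23968 autosomal windows of 100 kb scored in them. The *Tdg* null embryos i1 and i5 carried a neomycin-resistance cassette in place of the sequence that encodes the TDG catalytic domain and came from intercrosses of heterozygotes. The WT embryos were i6 and i9. The labels place i1 with i6 in litter pair_a and i5 with i9 in litter pair_b, and the same 4 embryos also gave heart and liver, so there were 2 embryos per genotype and 1 library from each.

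5-formylcytosine (5fC) is an oxidised form of 5-methylcytosine made by the TET enzymes. TDG is a DNA glycosylase that cuts 5fC and 5-carboxylcytosine out of DNA, after which base excision repair restores an unmodified cytosine. In the absence of TDG the oxidised base is no longer removed in this way, and it can be mapped by tagging its aldehyde group chemically, pulling the tagged DNA down and calling peaks along the genome. Carcass at this stage holds limb buds, somites, neural tube, vessels, blood, gut and the urogenital ridge together, and fewer cells of a type cannot be told apart from less 5fC per cell.

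*Tdg* null carcass held far more peaks than WT carcass (plot of peaks, covered length and wide peaks by library). The null library i1 held 164127 autosomal peaks and i5 held 217565, against 41464 in WT i6 and 34657 in WT i9. Their covered length, the bases under peaks, was 137 Mb and 192 Mb in the null libraries and 23.7 Mb and 20.2 Mb in the WT libraries. The groups did not overlap in either measure, and the group means on the log2 scale differed 4.98-fold for peaks and 7.40-fold for covered length. The log2 difference in covered length was 2.53 within litter pair_a and 3.25 within pair_b, against SDs of 0.34 among the null and 0.16 among the WT libraries (n = 2 each). The two-sided exact permutation test gave p = 0.33, which is the smallest that 2 against 2 libraries allow. The median peak was 700 bp long in both null libraries and 500 bp in both WT libraries. Peaks of at least 2 kb made up 10.2% and 12.6% of the covered length in the null libraries and 0.577% and 0.594% in the WT libraries. Chromosome Y, which entered no comparison, held 2 and 10 peaks in the null libraries and 44 in each WT library. The labels give no sex.

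**Figure D1:**
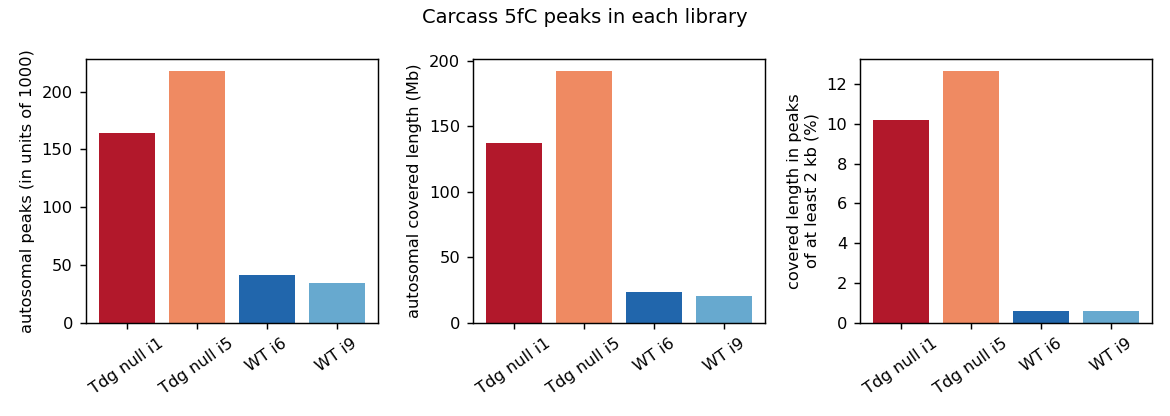
Autosomal peaks (in units of 1000), autosomal covered length (Mb) and the share of that length in peaks of at least 2 kb (%) in each carcass library, 1 bar per library. Both *Tdg* null bars stand above both WT bars in each panel, with 137 Mb and 192 Mb covered against 23.7 Mb and 20.2 Mb.

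A stretch of genome was called gained where both null libraries and no WT library had a peak, kept where all 4 libraries had one, and lost where both WT libraries and no null library had one. Merged across the 4 libraries, the peaks formed 248389 stretches, of which 103917 were gained (background 41.8%), 13805 were kept (5.56%) and 3842 were lost (1.55%). The other stretches had a peak in another combination of libraries, 68117 of them in i5 alone. Since the null libraries cover several times more genome, these shares are descriptions and were not tested. With null peaks taken longest first up to the WT covered length the balance turned, to 4.91% gained, 2.13% kept and 29.6% lost, and leaving out 1 library gave 45.5% to 76.1% gained and 1.83% to 3.99% lost. Of the WT i6 peaks, 56.3% overlapped a peak of i1 and 77.0% a peak of i5, and of the WT i9 peaks 64.1% and 73.4%.

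Gained, kept and lost stretches were close in base composition and differed more in length and place. The median stretch was 800 bp for gained, 1200 bp for kept and 600 bp for lost loci. CpG dinucleotides, the sites that carry most cytosine methylation, stood at 1.46 per 100 bases in gained, 1.70 in kept and 1.67 in lost loci, against 0.851 in the autosomal genome. GC content was 46.2%, 46.4% and 45.2%, against 41.9% in the genome. A gene body was overlapped by 54.9% of gained, 51.0% of kept and 39.1% of lost loci. A peak in at least 1 null hindbrain library lay in 66.8% of gained and 89.99% of kept loci but in 38.2% of lost loci, against 56.4% of all loci. In WT heart, whose libraries come from the same WT embryos, a peak lay in 1.05% of gained, 11.02% of kept and 30.8% of lost loci, against 2.59% of all loci. In heart of the same null embryos the shares were 54.6%, 75.6% and 35.2%, against 49.4% of all loci. In WT hindbrain, from other embryos, the shares were 7.73%, 35.9% and 18.4%, against 8.29% of all loci, so lost loci had the highest share in WT heart and kept loci in WT hindbrain.

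The 3 loci of each class with the most bases under peaks, averaged over the libraries that hold them, are given as examples. Untranslated regions and 1 autosome were left out of this choice. In NCBIM37, gained locus 1 (chr15:27712001-27721300) lay in an intron of *Trio*, a guanine nucleotide exchange factor of axon guidance, and had 8400 and 9300 bases under null peaks. Gained locus 3 (chr10:66564001-66571600) lay in an intron of *Jmjd1c*, a Jumonji-domain protein, with 7300 and 7500 bases. Kept locus 1 (chr4:148292901-148301800), in an intron of the zinc finger gene *Casz1*, had 7200 and 8800 bases in the null libraries and 1200 and 1400 in WT. Kept locus 2 (chr10:83845501-83853000), in the kinase gene *Nuak1*, had 7200 and 7500 bases in the null libraries and 1000 and 1300 in WT. Lost locus 2 (chr4:145163801-145166000) lay in *Gm13242* and had 2200 bases in both WT libraries and none in either null library. Lost locus 3 (chr3:25454301-25456500), in an intron of *Nlgn1*, a synaptic adhesion gene, had 2100 and 2000 bases in the WT libraries and none in the null libraries. By the same rule, gained locus 2 (chr8:18695501-18703800, *Mcph1* and *Angpt2*) had 7200 and 8300 bases in the null libraries, kept locus 3 (chr7:144191101-144197900, in an intron of *Mgmt*) had 2700 and 6800 in null and 3800 and 3300 in WT, and lost locus 1 (chr8:22085301-22087800, in no gene) had 2500 and 2300 in WT. The CpG-richest 200 bases of the 6 loci before these are printed, forward strand, with CpG in capitals. They were chosen by CpG count within the merged stretch, which WT peaks cover only in part at the kept loci. Which library's peaks hold each run is not given.
Trio gained: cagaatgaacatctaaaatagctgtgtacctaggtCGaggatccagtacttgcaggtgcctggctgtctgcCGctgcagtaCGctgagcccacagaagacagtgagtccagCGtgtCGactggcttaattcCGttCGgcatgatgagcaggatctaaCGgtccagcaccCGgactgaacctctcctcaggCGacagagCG
Jmjd1c gained: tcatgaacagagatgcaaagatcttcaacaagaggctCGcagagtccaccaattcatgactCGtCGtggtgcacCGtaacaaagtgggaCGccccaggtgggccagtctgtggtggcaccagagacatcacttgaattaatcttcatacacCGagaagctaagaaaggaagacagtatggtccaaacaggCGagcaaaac
Casz1 kept: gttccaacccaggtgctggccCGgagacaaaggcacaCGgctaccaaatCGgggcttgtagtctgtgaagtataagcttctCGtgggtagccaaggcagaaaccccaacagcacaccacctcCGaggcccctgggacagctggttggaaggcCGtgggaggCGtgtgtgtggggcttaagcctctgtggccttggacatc
Nuak1 kept: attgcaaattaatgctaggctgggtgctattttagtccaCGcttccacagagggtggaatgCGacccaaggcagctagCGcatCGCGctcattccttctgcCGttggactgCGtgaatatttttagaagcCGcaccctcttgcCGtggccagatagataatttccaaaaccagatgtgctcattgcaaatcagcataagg
Gm13242 lost: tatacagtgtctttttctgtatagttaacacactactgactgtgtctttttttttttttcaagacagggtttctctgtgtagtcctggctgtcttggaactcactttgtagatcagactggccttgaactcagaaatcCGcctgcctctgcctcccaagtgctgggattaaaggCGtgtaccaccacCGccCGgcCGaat
Nlgn1 lost: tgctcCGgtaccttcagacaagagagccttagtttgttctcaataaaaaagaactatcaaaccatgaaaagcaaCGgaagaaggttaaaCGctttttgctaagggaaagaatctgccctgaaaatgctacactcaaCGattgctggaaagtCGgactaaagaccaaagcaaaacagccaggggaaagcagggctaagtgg
These runs held 11, 7, 7, 9, 5 and 5 CpG in that order. The runs of gained locus 2, kept locus 3 and lost locus 1, not printed, held 9, 9 and 11, so the classes overlapped in this count. They lay at chr15:27717801-27718000, chr10:66564601-66564800, chr4:148298101-148298300, chr10:83851301-83851500, chr4:145165301-145165500 and chr3:25455901-25456100, and none overlapped an exon.

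Among the 21281 genes, 4459 were gained (background 21.0%), 4295 were kept (20.2%) and 88 were lost (0.414%), while 7927 had no peak in any carcass library. The balance turned here too with longest-first null peaks, to 206 gained, 1434 kept and 2399 lost genes, and leaving out 1 library gave 115 to 204 lost genes. Class went with gene length. The median gene was 18.6 kb for gained, 85.4 kb for kept, 23.6 kb for lost and 4.30 kb for genes without a peak. *Tdg* itself (chr10:82092573-82113544) was a kept gene, with 900 and 1600 bases under peaks in the null libraries and 200 and 400 in WT. Peaks mark pulled-down DNA and do not check the deletion.

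To compare genes across libraries that cover such different lengths, the bases under peaks in each gene body were scaled to 1 Mb of that library's covered length, so that a difference is one of share and not of amount. On this scale 4371 genes had a mean of at least 20 bases per Mb and were tested. limma on log2(bases per Mb + 10) put 290 genes higher in null (6.63% of those tested) and 222 lower (5.08%) at an adjusted p under 0.05, with a median difference of 0.08 over all genes tested. With the litter as a block limma called 0 genes in either direction. The smallest adjusted p was then 0.0938, and 1279 genes had an unadjusted p under 0.05. Of the 290 higher genes, 114 were listed at 0 in both WT libraries, and of the 222 lower genes 12 were listed at 0 in both null libraries. Such genes have no spread in 1 of the 2 groups. Without null i1 the counts were 115 higher and 0 lower, without null i5 114 and 0, without WT i6 1357 and 1134, and without WT i9 1319 and 1073. The balance also changed with the processing, with 3982 higher and 14 lower as unscaled bases, 615 and 884 with longest-first null peaks and 109 and 21 by peak midpoints. In simulated data of this size the test recovered 26 of 50 genes raised 8-fold and 2 of 50 lowered as far. For 4-fold changes it recovered 6 of 50 raised and 2 of 50 lowered genes, and it called 0 of 4171 unchanged genes. The simulated peaks had 1 fixed length and no variation between embryos, so these counts do not measure the error rate in the real libraries.

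**Figure D2:**
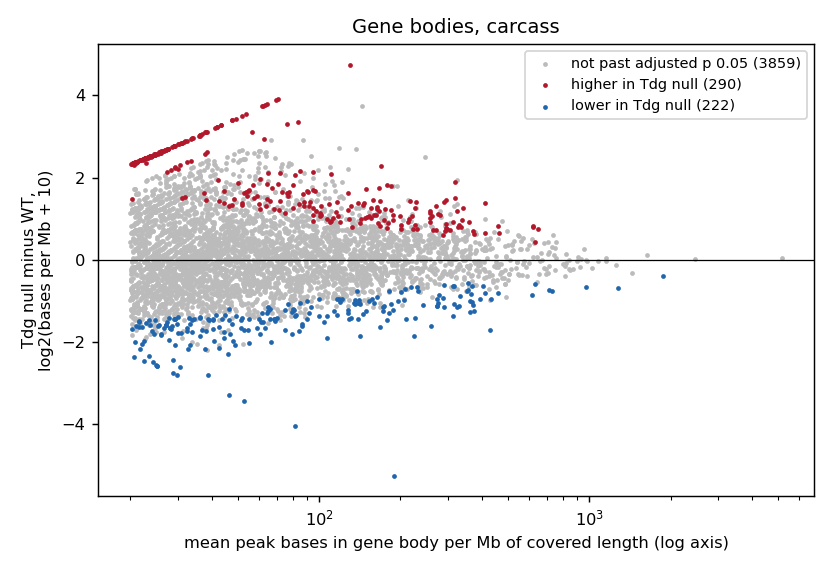
Each point is 1 of the 4371 tested genes, with mean peak bases per Mb of covered length on a log axis against the null minus WT difference in log2(bases per Mb + 10). The 290 higher and 222 lower genes lie on either side of a cloud centred near 0.08, and the straight upper line holds genes listed at 0 in both WT libraries.

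The 10 named genes with the largest increases were listed at 0 in both WT libraries. They passed the filter on low values through the null libraries alone, so their values are given as a description. *Nfasc*, which encodes neurofascin, an adhesion protein of axons, had 38.9 kb under peaks in i1 and 45.2 kb in i5, or 284 and 236 bases per Mb. *Pax7*, a regulator of muscle progenitors and neural crest, had 117 and 90.2 bases per Mb. *Ednra*, the endothelin receptor of cranial neural crest, had 110 and 105, and *Smad7*, an inhibitor of TGF-beta signalling, 139 and 119. In *Smad7* peaks covered 66.9% and 80.3% of the gene body. The orphan nuclear receptor gene *Esrrb* had 144 and 138 bases per Mb, the cytoskeletal linker gene *Ezr* 143 and 135, and the cell adhesion gene *Pvrl1* 118 and 129. *Fam78b*, *Ccnjl* and *Sox13* completed the group, at 87.2 to 135 bases per Mb in the null libraries. All 10 also had peaks in both null heart libraries.

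The 10 named genes with the largest decreases carried little 5fC in absolute terms, with 800 to 2300 bases under peaks in any WT library. *Zfp534*, a zinc finger gene, had 1300 bases in each WT library and none in either null library, and *Tifab* had 1200 and 1300 against none. *Vmn2r13*, a vomeronasal receptor gene, had 1100 in each WT library, *Npvf*, which encodes a neuropeptide precursor, 1200 and 1000, *Skint5* 1200 and 800, and the replication checkpoint gene *Clspn* 900 in each, all against none. *Ctdsp1*, *Spg11* and *Scrg1* had no peak in i1 and 800, 700 and 400 bases in i5. *Pard6b*, a cell polarity gene, had peaks in all 4 libraries, with 7.30 and 3.65 bases per Mb in null and 50.6 and 69.2 in WT. These 10 genes passed the filter on low values through the WT libraries alone, so their values too are given as a description. For each of them the null libraries lay below the WT libraries, also as unscaled bases. Of the 6 that were lost, *Zfp534*, *Vmn2r13*, *Skint5* and *Clspn* also had peaks in both WT heart libraries and in neither null heart library. *Tifab* had peaks in both null heart libraries and *Npvf* in none of the heart libraries. Heart came from the same embryos. In null hindbrain, from other embryos, *Tifab* had peaks in all 4 libraries, *Clspn* in 3, *Zfp534* and *Vmn2r13* in 2 each, *Skint5* in 1 and *Npvf* in none. In WT hindbrain *Zfp534* had peaks in 3 of 4 libraries, *Vmn2r13*, *Skint5* and *Clspn* in 1 each, and *Tifab* and *Npvf* in none.

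**Figure D3:**
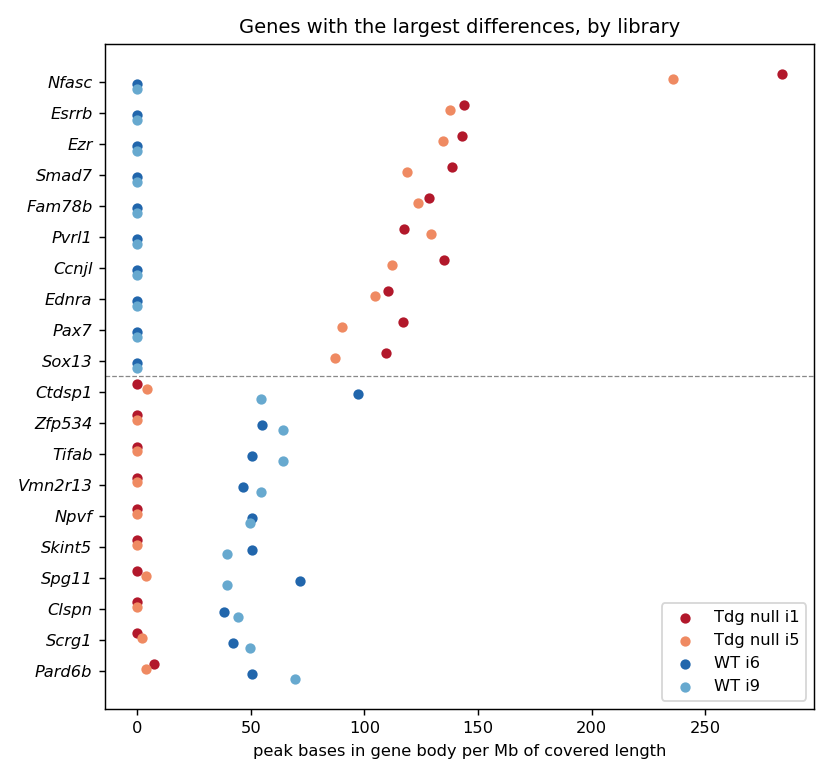
Peak bases in the gene body per Mb of covered length for the 10 genes with the largest increases (above the dashed line) and the 10 with the largest decreases (below it), 1 point per library. The WT points of the upper genes all lie at 0, and the null points of the lower genes lie between 0 and 7.30.

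Of 33 neural tube and neuron genes in the annotation, 12 were tested, and 4 were higher and 0 lower, against 6.63% higher and 5.08% lower among all genes tested. The median difference was 1.22 beside 0.08 over all genes tested. *Nrxn3*, a presynaptic adhesion gene, had 606 and 591 bases per Mb in null and 235 and 213 in WT, a difference of 1.38 (SE 0.11, adjusted p = 0.0197). *Cntnap2*, of the same neurexin superfamily, had 277 and 287 against 54.8 and 93.9, a difference of 1.83 (SE 0.27). *Rbfox1*, a splicing regulator, was also higher, at 412 and 360 against 190 and 163. The null and WT values did not overlap for these 3 genes. *Nrxn3* turned negative when null peaks were taken longest first up to the WT covered length, at -0.65, not past the threshold, and *Cntnap2* was then 0.41 and no longer called. *Cntnap2* was not called by peak midpoints or with a pseudocount of 2 either, and both genes lost their calls when null i1 or i5 was left out. In the neural crest and peripheral nerve list 8 of 22 genes were tested and none passed, with a median of 0.23. Its member with the most bases, *Ntrk2*, the BDNF receptor, had 422 and 337 bases per Mb in null and 354 and 331 in WT, a difference of 0.14 (SE 0.15, adjusted p = 0.536).

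Muscle and limb genes gave a few increases among many genes without a call, beside 6.63% of all tested genes that were higher, and nothing is read as particular to these lists. In the skeletal muscle list 13 of 27 genes were tested, 2 were higher and 0 lower, and the median was 0.19. Besides *Pax7*, the other was *Pax3*, a regulator of migrating muscle progenitors and neural crest, with 174 and 144 bases per Mb in null, 16.9 in WT i6 and 0 in WT i9. Both genes passed the filter on low values through the null libraries alone, so they are given as a description. The call of *Pax3* was lost with a pseudocount of 2, by peak midpoints and when null i1 or i5 was left out. In the limb and axial mesenchyme list 19 of 40 genes were tested, 2 were higher and 0 lower, with a median of 0.16. *Meis2*, a homeobox gene of the proximal limb, had 377 and 342 bases per Mb in null and 160 and 153 in WT (difference 1.15, SE 0.12, adjusted p = 0.0199). Its call was lost by peak midpoints, at 0.80, and when null i1 or i5 was left out. *Alx4*, a homeobox gene of limb and craniofacial mesenchyme, had 43.8 and 46.9 in null, was listed at 0 in both WT libraries and passed the filter in the same way. With 10 kb on either side of the gene its difference went from 2.47 to 0.93 and was not called. *Gli3*, a transcription factor of Hedgehog signalling, had 346 and 313 against 282 and 307 and was not called (adjusted p = 0.391). In the cartilage and matrix list 17 of 33 genes were tested, 0 were higher and 1 lower. That was the fibrillin gene *Fbn2*, at 165 and 171 in null and 341 and 420 in WT (difference -1.13, SE 0.15, adjusted p = 0.0296). Its call was lost by peak midpoints, without a trend and when null i1 or i5 was left out. *Sox5*, a chondrocyte transcription factor and the longest marked of the list, had 1278 and 1133 bases per Mb in null and 1277 and 1340 in WT, with overlapping groups (adjusted p = 0.388).

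Endothelial and blood genes held calls in both directions, too few to set these lists apart from all genes tested (6.63% higher and 5.08% lower). In the endothelial list 16 of 24 genes were tested, 1 was higher and 2 lower, and the median was -0.16. *Kdr*, which encodes VEGF receptor 2, had 52.2 and 50.8 bases per Mb in null, was listed at 0 in both WT libraries and passed the filter through the null libraries alone. The ETS factor gene *Erg* had 201 and 200 in null and 438 and 425 in WT (difference -1.07, SE 0.11, adjusted p = 0.0197). *Fli1*, another ETS factor gene, had 151 and 160 against 244 and 277 (difference -0.71, SE 0.14, adjusted p = 0.048). In the blood list 4 of 23 genes were tested, 1 was higher and 1 lower. *Zfpm1*, a cofactor of GATA1, had 93.0 and 80.0 in null, was listed at 0 in both WT libraries and likewise passed through the null libraries alone, while *Runx1*, needed for the first blood stem cells, had 205 and 262 against 497 and 519 (difference -1.10, SE 0.15, adjusted p = 0.0327). With longest-first null peaks *Fli1* stood at -0.0086, and *Kdr* (1.59), *Erg* (-1.27) and *Runx1* (-1.08) kept their sign, none of them called. *Fli1* was also not called with a pseudocount of 2, without a trend, by peak midpoints or with 10 kb on either side of the gene. *Runx1* lost its call without a trend and by peak midpoints, *Erg* by peak midpoints and *Kdr* with 10 kb on either side. The calls of *Runx1*, *Erg* and *Fli1* were lost when null i1 or i5 was left out. As unscaled bases *Erg*, *Fli1* and *Runx1* were all higher in null. *Runx1*, for example, had 28.1 kb and 50.3 kb under null peaks and 11.8 kb and 10.5 kb under WT peaks, so the decrease is one of share. The same was true of *Fbn2*.

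In the remaining lists calls were few, beside 6.63% higher and 5.08% lower over all genes tested, and nothing is read as particular to them. Of the epithelial and endodermal genes 6 of 26 were tested and *Epcam*, an epithelial adhesion gene, was lower, at 8.03 and 3.13 bases per Mb in null and 42.2 and 44.5 in WT. It passed the filter on low values through the WT libraries alone. The unscaled bases of *Epcam* overlapped, at 1.1 kb and 0.6 kb in null and 1 kb and 0.9 kb in WT. Of the urogenital genes 7 of 18 were tested. *Npnt*, which encodes a matrix protein of the ureteric bud, had 80.3 and 67.3 against 0 in both WT libraries and passed the filter through the null libraries alone, so its values are a description. With 10 kb on either side of the gene its difference went from 3.06 to 0.54 and was not called. *Wnt11*, a ureteric tip ligand, was lower, at 30.7 and 22.9 against 105 and 84.0. Genes of the dissected organs were present too. Of the cardiomyocyte genes 7 of 24 were tested and *Myocd*, a coactivator of cardiac and smooth muscle genes, was lower, at 81.7 and 73.0 against 156 and 163. As unscaled bases both turned the other way, with 4.2 kb and 4.4 kb in null and 2.5 kb and 1.7 kb in WT for *Wnt11*, and 11.2 kb and 14.0 kb against 3.70 kb and 3.30 kb for *Myocd*. By peak midpoints *Epcam*, *Wnt11* and *Myocd* were not called, nor were they when null i1 or i5 was left out. Of the hindbrain genes 2 of 20 were tested and none passed, and the most marked, *Pax5*, had 134 and 124 against 198 and 163 (adjusted p = 0.138). It was called lower with peaks of at least 600 bp, at -0.81, and without WT i9, at -0.59. No list holds a call with the litter as a block.

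Some groups held too few bases under peaks per gene body for the test. None of the 39 Hox genes reached a mean of 20 bases per Mb over the 4 libraries. Of these, 31 had no peak in any carcass library, beside 37.2% of all genes. The Hox genes had a median length of 4.06 kb, against 15.6 kb over all genes. *Hoxa3*, *Hoxb3*, *Hoxb7* and *Hoxd3* were gained, beside 21.0% gained over all genes. *Hoxb3* had the most, 3699 and 5799 bases in the null libraries and none in WT. None of the 28 ubiquitous genes was tested either, and *Ywhaz* had 2500 and 4600 bases in null, 0 in WT i6 and 600 in WT i9. Of 1432 chemosensory receptor genes, with a median length of 0.97 kb, 1393 had no peak, and *Vmn2r13* was the only one tested. In this list 5 were gained and 5 were lost, beside 21.0% and 0.414% over all genes.

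Among enzymes of DNA methylation, oxidation and base excision repair, 5 of 22 genes were tested and none passed, with a median of 0.87. *Dnmt3a*, a de novo methyltransferase, had 111 and 125 bases per Mb in null and 29.5 and 84.0 in WT (difference 1.07, SE 0.47, adjusted p = 0.187). The difference was 1.61 within litter pair_a and 0.52 within pair_b. With longest-first null peaks it was -2.61 and called lower, and without scaling it was called higher. *Tet3*, which makes 5fC, had 78.1 and 58.0 against 50.6 and 19.8, and *Tet2* 21.9 and 31.3 against 46.4 and 64.3. Neither was called. *Ogg1*, a glycosylase for oxidised guanine, was lost, with 600 bases in each WT library and none in either null library.

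Windows of 100 kb take in the sequence between genes as well. Of 17039 windows tested, those with a mean of at least 10 bases per Mb, 1276 were higher in null (7.49%) and 1020 lower (5.99%), with a median difference of 0.12. As unscaled bases 15131 were higher and 196 lower, and with longest-first null peaks 1038 and 6064. With the litter as a block 1022 were higher and 430 lower. Without null i1 or null i5 no window was lower, and without WT i6 or WT i9 3198 and 2729 were. Of the higher windows 940 were listed at 0 in both WT libraries, and of the lower ones 158 at 0 in both null libraries. These passed the filter through 1 genotype alone, so what follows on called windows is a description. Most calls stood alone, since the 1276 higher windows fell into 1159 runs of adjacent windows and the 1020 lower ones into 914. The higher windows with the largest differences held *Ext1*, a heparan sulphate synthesis gene (chr15:53100001-53200000, 27.6 kb and 38 kb under null peaks), *Pvrl1*, *Nfasc* with *Cntn2*, *Tesc* with *Fbxw8*, and *Kit*, the stem cell factor receptor (chr5:75900001-76000000, 15.6 kb and 20.5 kb). The window with the largest difference in each of the 5 was listed at 0 in both WT libraries. A protein-coding gene lay in 79.1% of the higher windows, 55.5% of the lower ones and 70.9% of all windows tested.

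Calls differed with the GC content of the window (plot of windows called by GC content). In windows under 36% GC, 9.60% were higher and 16.0% lower. In windows of 50% GC and over, 13.0% were higher and 2.50% lower, and the median difference was 0.49, against -0.01 in the windows under 36%. These shares are a description, and the part of GC content in the calls was not tested.

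**Figure D4:**
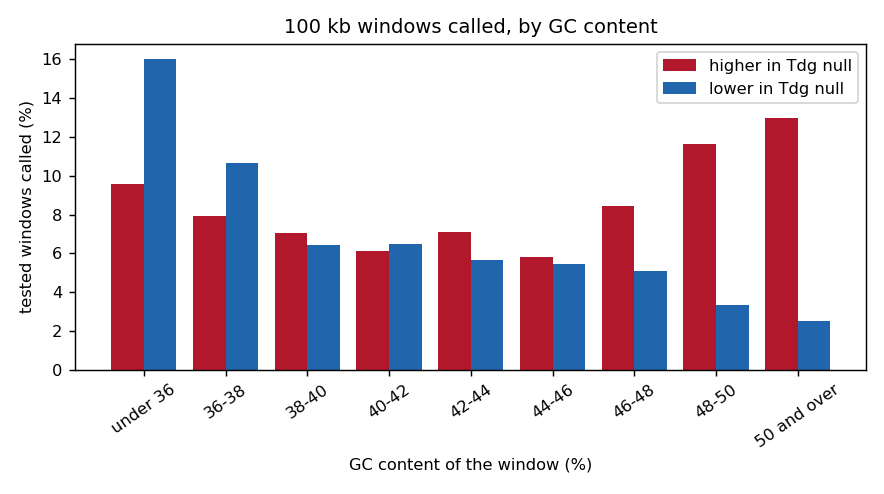
Share of tested 100 kb windows (%) called higher or lower in *Tdg* null, by GC content of the window. The lower calls fall from 16.0% of windows under 36% GC to 2.50% at 50% GC and over, where 13.0% are higher.

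The window with the largest decrease lay in a 2.00 Mb stretch of chromosome 4 (chr4:145100001-147100000). Of its 20 windows 16 were tested, and 11 were lower and 0 higher. Of its 19 protein-coding genes 5 were tested and all 5 were lower, *Zfp534* and *Gm13242* among them. The WT libraries i6 and i9 held 33 and 29 peaks there, covering 33.8 kb and 24.1 kb, while the null libraries i1 and i5 held 1 and 2 peaks, covering 0.400 kb and 0.800 kb. The null libraries were thus lower in unscaled bases as well, although they covered several times more of the genome. In heart of the same embryos the WT libraries held 44 and 15 peaks in the stretch and the null libraries 2 and 0. Hindbrain came from other embryos, and there the 4 null libraries held 8 to 27 peaks and the 4 WT libraries 5 to 33. Per Mb of covered length the null hindbrain libraries had 60.3 to 193 bases in the stretch and the WT ones 2729.7 to 12972, without overlap, while the unscaled counts overlapped. In liver of the same embryos the WT libraries held 23 and 14 peaks there and the null libraries 0 and 0. A null liver library, not identified by name, was set aside in the study for its quality. The stretch was chosen for its decrease in carcass, so its carcass values are a description. Without it 1009 windows and 217 genes remained lower. The next largest decreases were at chr6:67600001-67700000, chr8:71900001-72100000, chr8:22000001-22100000 and chr7:6500001-6600000, the last with *Olfr1350*. The window with the largest decrease in each had at most 0.5 kb in a null library and 2.50 kb to 3.90 kb in each WT library.

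**Figure D5:**
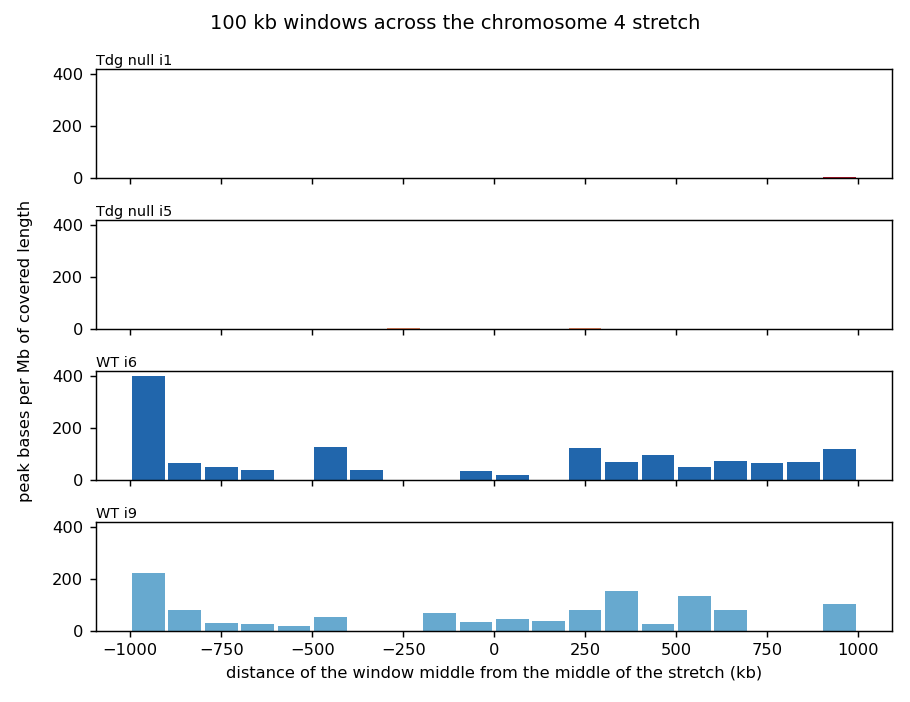
Peak bases per Mb of covered length in the 20 windows of 100 kb across the chromosome 4 stretch, by distance from its middle (kb), 1 panel per library on a shared axis. Peaks spread over the stretch in both WT libraries, while the null libraries hold 1 and 2 peaks.

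Across genomic features the null peaks lay more often in genes and promoters, measured as log2 of observed over evenly expected covered length on each chromosome. Gene bodies stood at 0.39 and 0.37 in null and 0.24 in both WT libraries, and introns at 0.39 and 0.38 against 0.22 in both. Promoters, the 1000 bp before a start site, stood at 0.31 and 0.27 against -0.08 and -0.10. CpG islands (CGIs) were depleted in all 4 libraries, at -0.40 and -0.57 in null and -1.22 and -1.18 in WT, a difference of 0.71. Their 2 kb shores stood at 0.64 and 0.61 against -0.15 and -0.27, a difference of 0.84. Exons stood at 0.37 and 0.31 against 0.42 in both, and intergenic sequence at -0.36 and -0.35 against -0.20 in both. Matched on GC content, exons too turned negative, at -0.14 in both null libraries and -0.06 and -0.07 in WT. The exon difference turned to 0.021 with longest-first null peaks, while the gene body and intergenic differences were then 0.33 and -0.43 and those of CGIs and shores 0.32 and 0.42. The groups did not overlap for any of the 7 features, and each exact p was 0.33. The CGI and shore differences depend on what is counted as an island. With islands of at least 200 bp, 50% GC and an observed over expected CpG ratio of 0.6 the CGI difference turned to -0.95, from 0.71 with 500 bp, 55% and 0.65, and the shore difference went from 0.84 to 0.041. Null peaks held 1.56 and 1.49 CpG per 100 bases against 1.95 and 1.98 in WT, and their GC content was 46.4% and 46.1% against 46.8% and 46.9%. The GC difference turned to 0.68 percentage points with longest-first null peaks.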

How the data were processed

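5fC pull-downs of carcass from 2 *Tdg* null and 2 WT embryos were compared. According to the methods the authors trimmed reads (trim_galore), aligned them to NCBIM37 (Bowtie2) and called peaks per library with MACS in SeqMonk. The deposited values are peak starts and ends only, on a grid of 100 bp, with no counts. The reads were not used here, so depth was not measured, and weaker peaks of a shallower library cannot be told apart from absent ones. The number of libraries limits the precision.

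Peaks on 19 autosomes were kept. Gene models were those of GENCODE for NCBIM37, and CGIs were found in the sequence of that build. Of the listed symbols, 4 were matched through RefSeq to an older symbol. Bases per Mb of covered length + 10 were compared on the log2 scale with limma 3.58.1 (R 4.3.3, trend, Benjamini-Hochberg over all features tested), and single values by exact permutation, in Python 3.11.15 with numpy 2.4.6 and pandas 2.3.3. limma was tested on simulated data.

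Genes named were *Tdg*, the 10 largest increases and decreases called with both litters alike (without Gm and Rik symbols or overlapping genes) and up to 3 called members of each of 16 lists, otherwise its most marked member. *Rbfox1*, *Gli3*, *Sox5*, *Tet2*, *Tet3*, *Ogg1* and 3 further Hox genes were chosen after their values were seen. Members and lists were chosen with earlier results of these data known. Pairing by litter comes from the labels. The correlation of i1 minus i5 with i6 minus i9 was -0.05 over genes and -0.09 over windows. Some results of the lists are not reported here. Alternatives covered the pseudocount, filters, peak length, scaling, feature definitions, the litter block and leaving out each library.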

Additional observations from a re-analysis of the deposited data

Results flagged for a closer look

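The enrichment in CGIs differed in direction between carcass and heart of the same embryos. The null minus WT difference lay between 0.60 and 0.82 in the 2 carcass litters and between -1.10 and -0.68 in the 2 heart litters, a gap of 1.60 between the tissue means on the log2 scale. A two-sided exact permutation of the tissue label over litters gave p = 0.33, the smallest that 2 against 2 allow, so the difference was not shown by a test. The permutation took no account of the 2 tissues sharing embryos and litters. With the looser island definition the differences were negative in both tissues, -1.06 to -0.83 in carcass and -1.68 to -1.50 in heart. Of 14 pairs of feature and tissue compared, this was the only one in which all litters of each tissue lay on opposite sides of 0.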

How the results depend on the processing

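The direction of the difference in number of peaks and in covered length was kept under every alternative run, between 2.11 and 2.52 and between 2.64 and 3.13 on the log2 scale when 1 library was left out, and 3.01 and 3.35 with peaks of at least 600 bp. The number of genes called did not hold. Higher and lower genes numbered 0 and 0 with the litter as a replicate block, 442 and 339 with a pseudocount of 50, 4110 and 789 without a filter, 595 and 575 with peaks of at least 600 bp, 615 and 884 with null peaks taken longest first to the WT covered length, 109 and 21 by peak midpoints, and 3982 and 14 without scaling. With a pseudocount of 2, 100 genes were lower. Leaving out 1 library gave 114 to 1357 higher and 0 to 1134 lower genes. Without null i1 limma called 115 higher and 0 lower genes and without null i5 114 and 0, while without WT i6 it called 1357 and 1134 and without WT i9 1319 and 1073. The lone library is then assumed to vary like the other group.

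Higher and lower windows numbered 2519 and 1949 at 50 kb, 681 and 679 at 200 kb, 4045 and 1600 with peaks of at least 600 bp, and 15131 and 196 without scaling. Lower windows were 430 with the litter block and 6064 with longest-first null peaks, and higher windows 3391 without a filter and 318 with a filter at 50 bases per Mb. Leaving out 1 library gave 942 to 4872 higher and 0 to 3198 lower windows.

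With longest-first null peaks, gained, kept and lost genes numbered 206, 1434 and 2399, and gained, kept and lost loci were 4.91%, 2.13% and 29.6% of stretches. With peaks of at least 600 bp 2589 genes were kept, 39 genes were lost and 0.676% of loci were lost. A minimum of 500 bases left 48 lost genes, and lost sequence was 0.893% counted by bases of the genome. Leaving out 1 library gave 4982 to 5804 gained, 4322 to 5542 kept and 115 to 204 lost genes, and 45.5% to 76.1% gained, 7.58% to 9.44% kept and 1.83% to 3.99% lost loci.

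Feature differences with peaks of at least 600 bp were 0.093 for gene bodies, 0.11 for introns, -0.11 for intergenic sequence, 0.29 for promoters and 1.01 for shores, and the GC difference was -0.97 percentage points. With longest-first null peaks they were 0.33 for gene bodies, 0.36 for introns, 0.021 for exons (reversed), -0.43 for intergenic sequence, 0.42 for promoters, 0.32 for CGIs and 0.42 for shores, the GC difference was 0.68 (reversed) and the CpG difference -0.29. Matching on GC content gave 0.15 for gene bodies and 0.17 for introns. The looser islands, chosen after seeing the data, gave -0.95 for CGIs (reversed) and 0.041 for shores.

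Of the named genes, without scaling *Fbn2* (1.70), *Erg* (1.77), *Fli1* (2.12), *Runx1* (1.75), *Wnt11* (1.02), *Myocd* (1.81) and *Pax5* (2.37) reversed. With longest-first null peaks *Nrxn3* (-0.65) and *Dnmt3a* (-2.61) reversed, *Dnmt3a* as a call in the opposite direction. *Ntrk2* was -0.25 with peaks of at least 600 bp and -0.021 without null i1. Calls of named genes were lost without a reversal for 10 genes with 10 kb on either side (*Esrrb*, *Ezr*, *Ednra*, *Ctdsp1*, *Tifab*, *Pard6b*, *Alx4*, *Kdr*, *Fli1* and *Npnt*), 14 by peak midpoints, 7 with a pseudocount of 2, 6 with longest-first null peaks, 4 without a trend, 4 without scaling, 21 without null i1 and 22 without null i5, and 35 with the litter block. The cause was not tested in any of these.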
